A study of Mus musculus with 70 samples.

Results

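The effect of maternal diet on liver mRNA during the light phase was examined in 16-week-old male offspring. The comparison took the 18 mice of that age that were killed at zeitgeber time (ZT, hours after lights on) 1, 5 or 9, out of 70 mice in all. There were 9 mice from dams on a control diet (Ctr) and 9 from dams on a high-fat diet (HFD), with 3 mice per diet and ZT. All mice were C57BL/6. Their dams ate the Ctr diet (AIN-93G, 15.8% of the energy from fat) or the HFD (D12492, 60%) from 5 weeks before mating until delivery. After that, every dam and every pup received standard chow, litters were set to 6 pups, and weaning was at day 21. The offspring thus never ate the HFD themselves, and the diets compared are those of their mothers. The study's methods state that litters were randomized over the time points, but the labels do not tie mice to litters. Whole liver was sampled, so fewer cells of a type and less RNA per cell cannot be told apart.

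Poly-A RNA was counted per gene, with totals between 15421559 and 20100545 counts per mouse on Ctr and between 15569430 and 17133063 on HFD. Levels are given as CPM, read counts normalised to the depth of the library, with TMM scaling for library composition. Hepatocyte markers made up most of the marker signal, as liver should, with sums of 78800 to 119000 CPM over 8 genes on Ctr and 107000 to 134000 on HFD. The libraries differed between the diets beyond single genes. Relative to the mean of all mice at the same ZT, the levels went up with gene length in all 9 Ctr mice, with a Spearman's rho between ZT-centred level and exonic length of 0.0803 to 0.324 across genes. The sign was the opposite in 8 of the 9 HFD mice, with rho from -0.404 to -0.0551. The exception was HFD replicate 3 at ZT9, with a rho of 0.386. Because levels were centred on the mice of both diets at a ZT, opposite signs in the diets are partly built in. Only the difference between the diets was tested. The mean rho was lower by 0.333 on HFD (0.176 on Ctr and -0.157 on HFD, exact permutation of the diets within ZT, two-sided, p = 0.003, adjusted p = 0.007 over 8 library measures). HFD libraries also held fewer genes with a count (means of 18100 and 18600, adjusted p = 0.007), a lower TMM factor (0.962 and 1.04, adjusted p = 0.003) and a larger share of counts in the 10 most abundant genes (20.3% and 18.6%, adjusted p = 0.0224), all by the same exact permutation test. The part of these measures in the results was not tested. Since the lists below differ in gene length, the main ones are also given after an offset that removes the trend with length, and results that rest on HFD replicate 3 at ZT9 are given without it.

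The liver adjusts its chemistry between the fasting light phase and the feeding dark phase. Most of its ATP comes from oxidative phosphorylation, in which complexes I, III and IV of the mitochondrial respiratory chain pump protons and ATP synthase uses the gradient. A small set of subunits is encoded by the mitochondrial genome and made on mitochondrial ribosomes, while the others are nuclear genes translated on cytosolic ribosomes and imported. The mouse liver is also sexually dimorphic, because the pulsatile release of growth hormone in males keeps male-biased genes on and female-biased genes off.

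No single gene passed the test across all genes. Of 17199 genes tested with edgeR's quasi-likelihood test (ZT as a factor), 0 (0%) had an adjusted p (Benjamini-Hochberg) below 0.05, and the lowest adjusted p was 0.0639. The p-values were still low for many genes. Unadjusted p-values below 0.05 were found for 1269 genes higher on HFD (7.38% of the genes tested) and for 1427 lower (8.3%). An adjusted p below 0.1 was reached by 284 genes, 183 higher (1.06%) and 101 lower (0.587%). That number was 17 with an offset for gene length, 1 with the replicate number in the fit and 1605 without HFD replicate 3 at ZT9. It was 0 when any one of these mice was left out: Ctr replicates 2 and 3 at ZT1, 1 and 2 at ZT5, and 2 and 3 at ZT9, or HFD replicates 2 and 3 at ZT1, 3 at ZT5 and 2 at ZT9. The variation between mice of a group was estimated at 0.19 as a coefficient of variation. The count of 0 at an adjusted p below 0.05 moved with the tool, the libraries and the filter. DESeq2 called 574 genes (3.34%), of which 270 were among the 284. Without HFD replicate 3 at ZT9, edgeR called 526 genes as higher (3.02%) and 319 as lower (1.83%), including 276 of the 284. With no filter on low counts 835 genes passed, with all 36 mice of this age in the fit 577, and without ZT9 209. With the offset for gene length, 0 genes passed with all 18 mice and 285 without that library. Genes are therefore described below as higher or lower, with their values, and not as changed.

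The genes of the mitochondrial genome were among those with the lowest p-values. Of the 13 protein-coding members, 12 were higher on HFD and 11 (84.6%, against 7.38% of all genes) had an unadjusted p below 0.05 in that direction, with a median log2 fold change of 0.47 against -0.035 over all genes tested. mt-Co1, which encodes the catalytic subunit of cytochrome c oxidase (mitochondrial genome, 5328 to 6872), had a lowest, median and highest level of 17800, 20100 and 23100 CPM in Ctr mice and of 23700, 27600 and 37600 CPM in HFD mice. The diets did not overlap: every HFD mouse lay above every Ctr mouse, also HFD replicate 3 at ZT9. Only 2 of the 17199 genes (0.0116%) had this pattern, the other being Ppa2, which encodes the mitochondrial inorganic pyrophosphatase (34.6 to 37.7 CPM on Ctr, 38.7 to 57.8 CPM on HFD). The reverse held for 1 gene (0.00581%), the cell polarity gene Pard3 (71.9 to 82.0 and 63.2 to 71.3 CPM). The log2 fold change of mt-Co1 was 0.47 (SE 0.0869, adjusted p = 0.0639 from edgeR), and it was 0.44 at ZT1, 0.38 at ZT5 and 0.61 at ZT9. Without HFD replicate 3 at ZT9 it was 0.51 (adjusted p = 0.00442). Other omissions went the other way. The lowest adjusted p of all genes, mt-Co1 included, was 0.15 without HFD replicate 3 at ZT5 and 0.147 without replicate 2 (edgeR).

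mt-Cytb, the cytochrome b subunit of complex III, had 7920 to 10800 CPM on Ctr (median 8460) and 9710 to 17900 CPM on HFD (median 12800). All HFD mice lay above all Ctr mice within each of the 3 ZT, as for 15 genes in all (0.0872%), and the log2 fold change was 0.54 (SE 0.0996, adjusted p = 0.0639). The complex I subunits mt-Nd1, mt-Nd2 and mt-Nd4 were higher by 0.49, 0.45 and 0.48 on the log2 scale. mt-Atp8 and mt-Nd4l had -0.15 and 0.01. mt-Co2 and mt-Co3 had log2 fold changes of 0.80 and 1.10, but only reads with a single match in the genome were counted, and parts of them have nearly identical nuclear copies, such as the pseudogene Gm28437 on chromosome 1 (log2 fold change 0.94). mt-Co3 also overlaps mt-Atp6, so these values are uncertain. Summed over all genes of the mitochondrial genome, the share of counts was 4.77% to 5.90% on Ctr and 5.70% to 9.33% on HFD. The mean share was 5.30% and 6.75%, a difference of 1.45 percentage points (exact permutation within ZT, two-sided, p = 0.00025, the smallest of 8000 assignments, adjusted p = 0.002). With the offset for gene length the median of the 13 genes was 0.31.

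The nuclear genes of the respiratory chain were higher on HFD almost throughout. Of 80 tested, 78 were higher, 56 (70%, against 7.38% of all genes) had an unadjusted p below 0.05 in that direction and 0 in the other, and the median log2 fold change was 0.31. Complex I contributed 38 subunits, all of them higher (median 0.327, 27 with p below 0.05). Complex III had a median of 0.296 over 9 genes, complex IV 0.323 over 12 and ATP synthase 0.258 over 16. Complex II, which also belongs to the citric acid cycle, had a median of 0.114 over 4 genes, of which 1 had a p below 0.05. With the offset for gene length the medians were 0.172, 0.0653, 0.143 and 0.151 for complexes I, II, III and IV and 0.217 for ATP synthase. The level averaged over all members of the nuclear respiratory chain, in log2 CPM, was 6.38 to 6.72 in Ctr mice and 6.32 to 7.18 in HFD mice. The plot of gene groups by mouse shows 8 HFD mice above every Ctr mouse and HFD replicate 3 at ZT9 below every Ctr mouse.

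**Figure D1:**
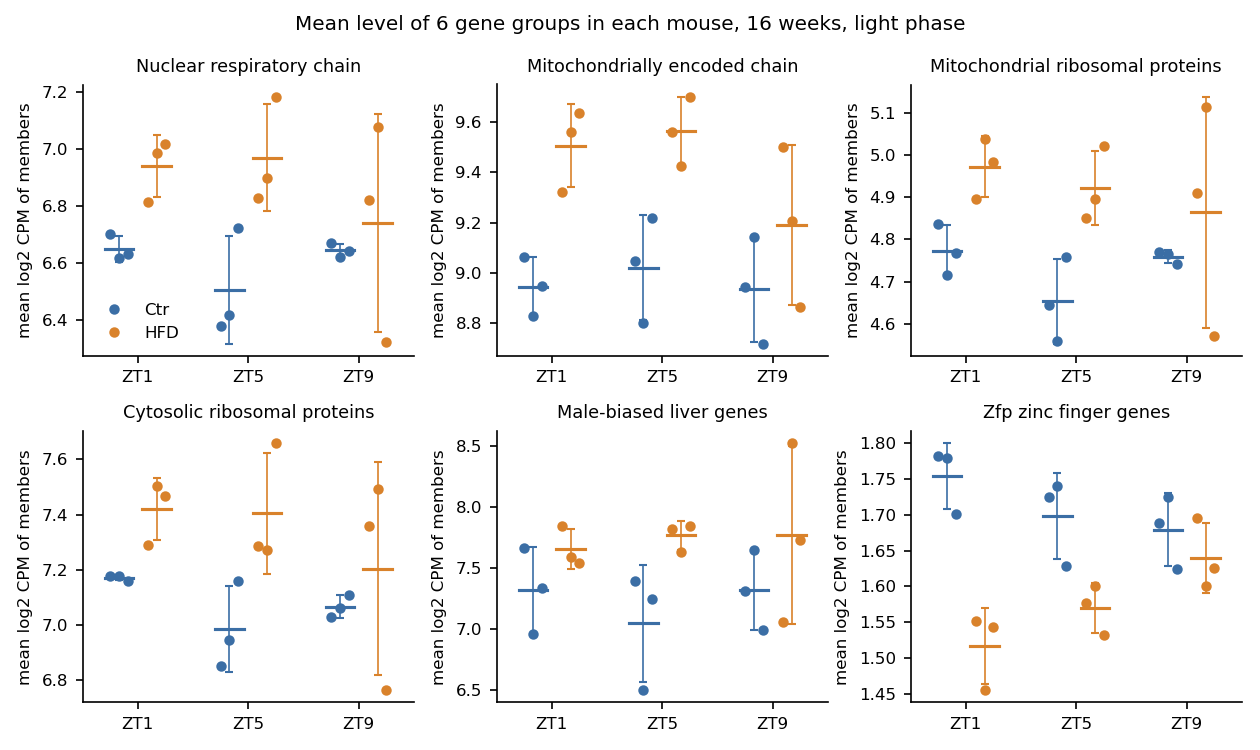
Mean log2 CPM over the members of 6 gene groups in each of the 18 mice, by ZT (points, mice; horizontal lines, mean of 3 mice; bars, SD). At ZT1 and ZT5 all HFD mice lie above all Ctr mice for the respiratory chain and both kinds of ribosomal proteins, and at ZT9 the lowest HFD point of these groups is replicate 3, which is not low for the male-biased genes.

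Ndufa12, an accessory subunit of complex I (chromosome 10 of GRCm38, 94198720 to 94221443), differed most in size within this group. Its level was 10.1 to 17.2 CPM in Ctr mice (median 15.4) and 12.9 to 61.3 CPM in HFD mice (median 26.7). The 3 HFD mice had 25.8, 22.0 and 54.0 CPM at ZT1, 40.3, 22.8 and 61.3 CPM at ZT5, and 26.7, 43.9 and 12.9 CPM at ZT9, the last being replicate 3. The HFD mice thus spread far more widely than the Ctr mice, and 8 of 9 lay above the highest Ctr mouse. The log2 fold change was 1.16 (SE 0.216, adjusted p = 0.0639). Ndufs4, a complex I subunit needed for its assembly (chromosome 13, 114287795 to 114388258), had 44.4 to 59.6 CPM on Ctr (median 55.9) and 52.9 to 102 CPM on HFD (median 74.8), with a log2 fold change of 0.50 (SE 0.10, adjusted p = 0.0807). It was 0.37, 0.62 and 0.50 at the 3 ZT. Ndufa7, Ndufa11 and Ndufb9, further complex I subunits, had 0.46, 0.48 and 0.58. Ndufa11 overlaps Vmac on the opposite strand, and counting by strand is not stated, so its value is uncertain.

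**Figure D2:**
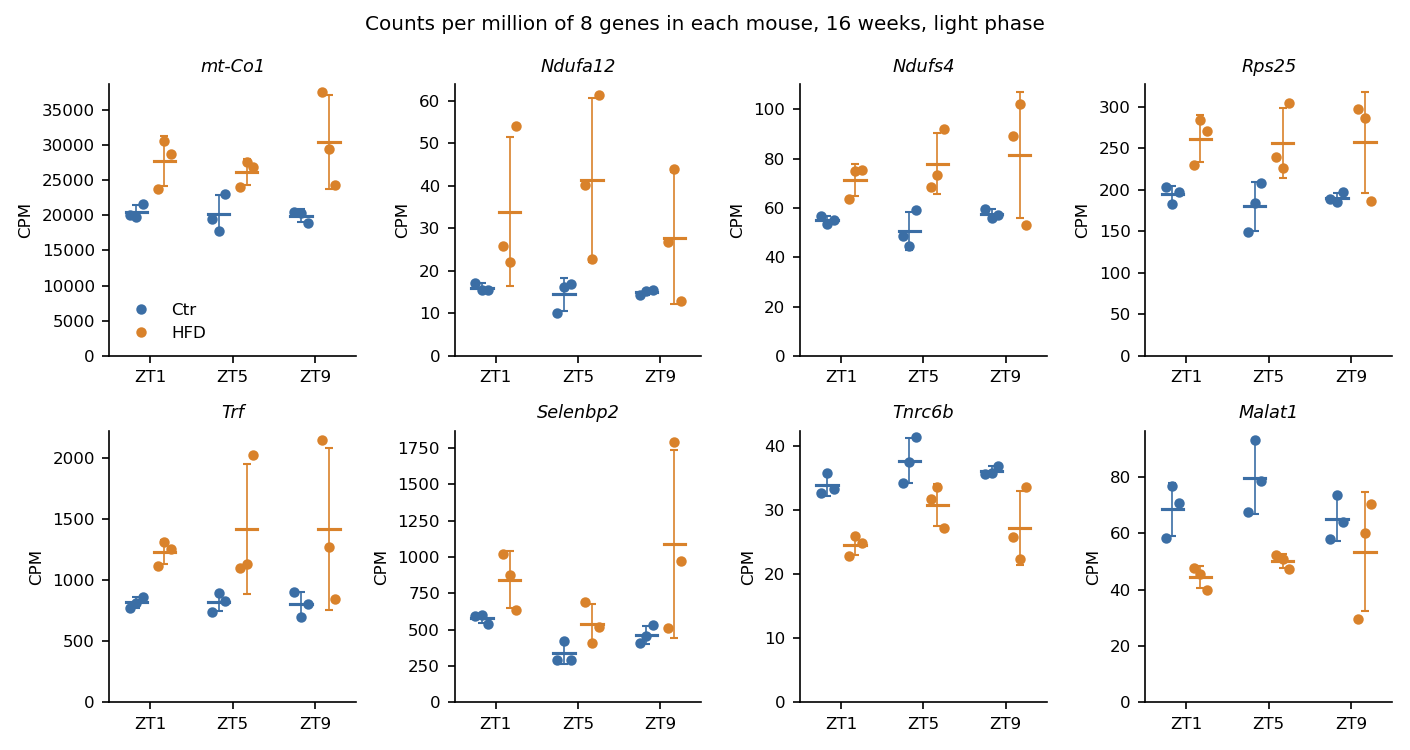
CPM of 8 genes in each mouse by ZT (points, mice; horizontal lines, mean of 3; bars, SD; axes start at 0). mt-Co1 shows no overlap between Ctr and HFD mice, while the highest Selenbp2 value (1790 CPM) is that of a single HFD mouse at ZT9.

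Promoters of respiratory chain genes are known to bind nuclear respiratory factor 1 (NRF1) and the ETS factor GABPA. A core of the NRF1 motif, spelled GCGC, any base and then TGCGC, was searched on both strands in the 250 bases before each RefSeq gene start (GRCm38.p6). It was present for 13 of the 65 respiratory chain genes with such a sequence (20%), against 8.35% of the 11704 genes tested that had one and 4.23% of all 27025 genes in the table. The letters CCGGAAG, a GABPA core, were present for 18.5% of the respiratory chain genes, 29.5% of the cytosolic ribosomal protein genes and 14.3% of the genes tested. They were also present for 25% of the mitochondrial ribosomal protein genes, 24.2% of the splicing regulators and 19.3% of the Zfp genes. The letters AAGATGG, a YY1 core, were present for 1.54% of the respiratory chain genes and 5.02% of the genes tested. In the respiratory chain the median log2 fold change was 0.34 over the 13 genes with the NRF1 letters and 0.32 over the 52 without. In the mitochondrial ribosomal proteins it was 0.17 over 10 genes with them and 0.21 over 58 without, and neither pair was compared by a test. The stretches of 60 bases from 3 members with the letters are shown so that the match and its neighbourhood can be read, with the match, on either strand, in capitals. They lie before the gene start, outside annotated exons, at chr4:123718250-123718309, chr16:37654525-37654584 and chr11:115420026-115420085, all on the minus strand.
Ndufs5: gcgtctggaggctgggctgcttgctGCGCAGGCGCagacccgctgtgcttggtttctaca
Ndufb4: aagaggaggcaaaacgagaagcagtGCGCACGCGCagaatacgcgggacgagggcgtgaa
Atp5h: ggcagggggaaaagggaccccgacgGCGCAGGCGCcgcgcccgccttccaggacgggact
Their log2 fold changes were 0.42 for Ndufs5 and 0.46 for Ndufb4, both of complex I, and 0.35 for Atp5h, a stalk subunit of ATP synthase.

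Ribosomal protein genes were mostly higher too. Of 82 cytosolic ribosomal protein genes, 80 were higher and 60 (73.2%, against 7.38% of all genes) had an unadjusted p below 0.05 in that direction, with a median log2 fold change of 0.28. The 60 were 36 with the offset for gene length and 45 without the 3 Ctr libraries that stood apart in the sex-biased genes, described below. The large and the small subunit had nearly the same median, 0.281 over 48 genes and 0.28 over 32. Rps25 had 149 to 208 CPM in Ctr mice (median 189) and 187 to 305 CPM in HFD mice (median 271), with 8 HFD mice above every Ctr mouse, and a fold change of 0.46 on the log2 scale (SE 0.0915, adjusted p = 0.0807). Rpl21, Rpl39 and Rpsa had log2 fold changes of 0.88, 0.64 and 0.45. Ribosomal protein genes have many processed pseudogenes and Rps25 overlaps Trappc4 and Ccdc84, so single values are uncertain. Mitochondrial ribosomal proteins, which form the ribosome inside the organelle, were higher in 76 of 77 cases, 43 (55.8%) with a p below 0.05, with a median of 0.19. The 43 were 30 with the offset, 27 without these 3 libraries and 22 without HFD replicate 1 at ZT9 as well. Mrpl30 had 46.0 to 57.5 CPM on Ctr (median 50.7) and 55.3 to 87.6 CPM on HFD (median 64.3) and was another of the 15 genes (0.0872%) that did not overlap within any ZT, with a log2 fold change of 0.39 (SE 0.0872, adjusted p = 0.0816). Mrps14 had 0.37. By contrast, ribosome biogenesis factors had a median of -0.04 over 28 genes.

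Other groups that serve mitochondria or protein turnover had smaller medians, and their shares of genes higher at a p below 0.05 are to be read against 7.38% of all genes. The protein import machinery had a median of 0.13 over 29 genes (0.06 with the offset for gene length), 7 of them (24.1%) with a p below 0.05 in that direction. The proteasome, which degrades ubiquitinated proteins, had a median of 0.16 over 38 genes (0.11 with the offset), 13 of them (34.2%) with a p below 0.05. Psmb1, a subunit of its core, had 104 to 136 CPM on Ctr (median 120) and 123 to 207 CPM on HFD (median 144), with a log2 fold change of 0.34 (SE 0.0845, adjusted p = 0.0878). The unfolded protein response had a median of 0.17 (0.14 with the offset), 7 of 25 genes (28%) with a p below 0.05, among them the secreted factor Manf (0.43) and the chaperone cofactor Dnajb9 (0.46). Without the 3 Ctr libraries that stood apart in the sex-biased genes, described below, 6, 9 and 3 genes of these lists had such a p. For the enzymes of the citric acid cycle the share was below that of all genes. They had a median of 0.08, and 1 of 18 genes (5.56%), the malate dehydrogenase Mdh2 (0.18), was higher at a p below 0.05.

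Differences in gene length went along with these values. Among genes with a mean of at least 1 CPM, the median log2 fold change was 0.203 for the 637 genes with up to 1000 exonic bases, 0.115 for 1000 to 2000 bases, 0.0193 for 2000 to 4000 bases and -0.0911 for the 6447 genes over 4000 bases. In the shortest class 30% of the genes were higher with a p below 0.05 and 2.83% lower, and in the longest class 3.27% were higher and 16% lower. The order was the same after the respiratory chain and ribosomal genes were left out, with medians of 0.189, 0.104, 0.0137 and -0.0922. Within the length classes, the medians of the nuclear respiratory chain and of the other genes, which were not compared by a test, were 0.335 and 0.197 up to 1000 bases, 0.328 and 0.111 for 1000 to 2000 bases, 0.195 and 0.0168 for 2000 to 4000 bases, and 0.251 and -0.0913 over 4000 bases. With the offset for gene length, the median of the nuclear respiratory chain was 0.17, that of cytosolic ribosomal proteins 0.17 and that of mitochondrial ribosomal proteins 0.12 (0.31, 0.28 and 0.19 without it). In HFD replicate 3 at ZT9, the library with the opposite trend with length, the respiratory chain average minus that of the Ctr mice at ZT9 was -0.322 in log2 CPM, and the same difference for cytosolic ribosomal proteins was -0.302.

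**Figure D3:**
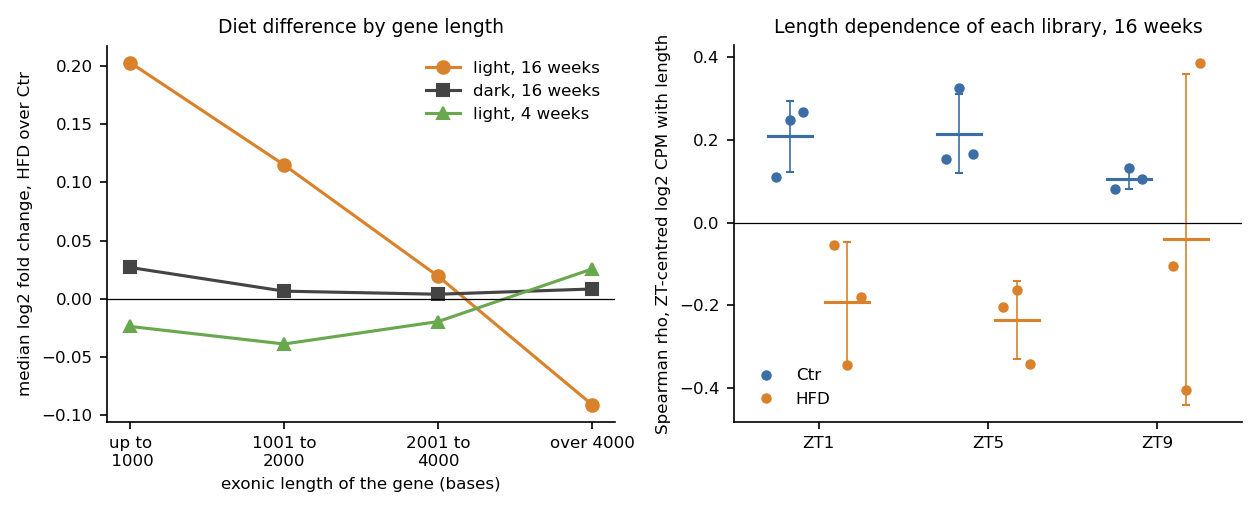
Left, median log2 fold change between the diets in 4 classes of exonic gene length, for the light phase at 16 weeks, the dark phase at 16 weeks and the light phase at 4 weeks. Right, Spearman's rho across genes between ZT-centred log2 CPM and gene length in each light-phase mouse at 16 weeks (lines, mean; bars, SD). The light-phase medians fall from 0.203 to -0.0911, the dark-phase medians stay between 0.00379 and 0.0268, and 1 HFD mouse at ZT9 lies above all Ctr mice.

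Male-biased liver genes had mostly higher values on HFD, with and without the offset for gene length, and 3 Ctr libraries stood apart in these genes. Of 30 tested, 28 were higher and 14 (46.7%, against 7.38% of all genes) had an unadjusted p below 0.05 in that direction and 0 in the other, with a median log2 fold change of 0.31, and of 0.30 with the offset for gene length. Their mean log2 CPM was 6.96, 6.50 and 6.99 in Ctr replicate 2 at ZT1, replicate 2 at ZT5 and replicate 3 at ZT9, 7.25 to 7.66 in the other Ctr mice and 7.06 to 8.52 in the HFD mice, the lowest being replicate 1 at ZT9. The first principal component of the 18 libraries was -25.4, -34.6 and -21.7 in these 3 Ctr mice, -4.93 to 2.61 in the other Ctr mice and -9.54 to 36.9 in the HFD mice, the highest being replicate 2 at ZT9, which also had the highest male-biased mean. Without the 3 libraries, a choice made after the data were seen, the list median was 0.27 with 8 genes at a p below 0.05, and without HFD replicate 1 at ZT9 as well it was 0.29 with 15. In HFD replicate 3 at ZT9, where the respiratory chain was low, their mean log2 CPM was 7.73, against 7.31, 7.64 and 6.99 in the Ctr mice at ZT9. Selenbp2, a selenium-binding protein gene with male-biased expression (chromosome 3, 94693556 to 94704413), had 295 to 601 CPM in Ctr mice (median 457) and 410 to 1790 CPM in HFD mice (median 689). Here 6 HFD mice lay above the highest Ctr mouse and the other 3 within the range of Ctr, and the log2 fold change was 0.81 (SE 0.178, adjusted p = 0.0807). Mup3, a major urinary protein, had 4370 to 7920 CPM on Ctr (median 6520) and 6710 to 13800 CPM on HFD (median 8100), a log2 fold change of 0.50 (SE 0.142, adjusted p = 0.109). Major urinary protein genes are nearly identical to each other, so the split of reads among them is uncertain. Further male-biased genes were Cyp4a12b, a fatty acid hydroxylase (0.38), Hsd3b5, a steroid dehydrogenase (0.43), and Cyp7b1, an oxysterol hydroxylase (0.52). HFD replicate 2 at ZT9 had 817 CPM of Cyp7b1, against 251 to 450 CPM in the other HFD mice and 197 to 331 CPM on Ctr, and without it Cyp7b1 had 0.35 and Selenbp2 0.63. Serpina1e and Nox4 had 0.12 and 0.04.

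The direction of the female-biased genes rested on these libraries. Of 30 listed, 19 were tested and 12 were lower, against 9674 of the 17199 genes tested. Those with an unadjusted p below 0.05 were 2 (10.5%, against 8.3% of all genes in that direction), Abcd2, a peroxisomal transporter, and Ntrk2, a neurotrophin receptor. Abcd2 had 10.7 to 69.9 CPM on Ctr (median 21.7) and 3.50 to 50.7 CPM on HFD (median 11.3), with wide overlap. The 3 highest Ctr values were those of the same 3 libraries (29.1, 69.9 and 68.7 CPM), and the highest HFD value was that of replicate 1 at ZT9. Abcd2 had a log2 fold change of -1.15 (SE 0.362, adjusted p = 0.133). The mean log2 CPM of the list was 1.21, 1.61 and 1.38 in the 3 Ctr libraries and 1.71 in HFD replicate 1 at ZT9, 0.105 to 0.715 in the other Ctr mice and 0.20 to 0.66 in the other HFD mice. The list median was -0.13, and it was 0.19 without the 3 Ctr libraries and 0.14 without all 4. Abcd2 had -0.39 and -0.79 in these fits and Ntrk2 0.06 and -0.26. In the growth hormone list, Cish, a target of STAT5, had -0.69 and Bcl6, a repressor of female-biased genes, 0.72, with unadjusted p-values of 0.00957 and 0.0488 from edgeR, while Igfals had 0.28. At ZT1 Bcl6 had 94.6 CPM in HFD replicate 1 but 16.1 and 9.82 CPM in replicates 2 and 3, against 45.5, 9.15 and 13.8 CPM on Ctr. The list median over 15 genes was -0.13, -0.08 with the offset for gene length and 0.04 without the 3 Ctr libraries.

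Among single genes outside these groups, Trf, a member of the hepatocyte marker list, which encodes the iron carrier transferrin (chromosome 9, 103204001 to 103230444), had 696 to 906 CPM in Ctr mice (median 815) and 848 to 2150 CPM in HFD mice (median 1260). Its log2 fold change was 0.73 (SE 0.141, adjusted p = 0.0805), and 0.72 with the offset for gene length. The lowest HFD value was again that of replicate 3 at ZT9. Cks1b, a cyclin-dependent kinase subunit at low level, was also one of the 15 genes (0.0872%) that did not overlap within any ZT, and had a log2 fold change of 0.68. The thyroxine carrier Ttr, also of that list, had 0.44 and the pentraxin Crp 0.34. Over the 27 genes of the acute phase list, 15 were higher and 12 lower (median 0.01). The remaining genes of the 12 with the lowest p-values in this direction were the pseudogenes Gm45855, Gm10177 and Gm10250 (0.63, 0.77 and 0.56), whose reads may be shared with their parent genes.

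Genes that were lower at a p below 0.05 were 1031 of the 6447 with over 4000 exonic bases and at least 1 CPM (16%), 180 of the 3651 with 2000 to 4000 bases (4.93%), 30 of 1421 with 1000 to 2000 (2.11%) and 18 of 637 with up to 1000 (2.83%). Tnrc6b, which encodes a scaffold protein of miRNA silencing (chromosome 15, 80711313 to 80941085, 23677 exonic bases), had 32.6 to 41.3 CPM in Ctr mice (median 35.7) and 22.3 to 33.6 CPM in HFD mice (median 25.9). Within each ZT all HFD mice lay below all Ctr mice, as for 14 genes in all (0.0814%), and the log2 fold change was -0.39 (SE 0.0758, adjusted p = 0.0805). With the offset for gene length it was -0.22. Mtor, the kinase that couples nutrients to growth, had 43.6 to 77.8 CPM on Ctr (median 64.9) and 37.4 to 64.1 CPM on HFD (median 49.6), with -0.33 (SE 0.0731, adjusted p = 0.0816) and -0.20 with the offset. Rb1cc1, needed to start autophagy, Ankrd11, a chromatin regulator, and Tpr, a nuclear pore component, had -0.37, -0.28 and -0.36, and -0.21, -0.11 and -0.23 with the offset. The complement gene Cfb, of 2825 exonic bases, had 4.11 to 7.04 CPM on Ctr (median 5.67) and 1.92 to 5.02 CPM on HFD (median 3.68). It had -0.65 (SE 0.147, adjusted p = 0.0821) and -0.68 with the offset. Chpf2, Uvssa, Iffo2, Bahd1 and Gm4673 had -0.48, -0.58, -0.52, -0.39 and -0.68. Chpf2 and Gm4673 overlap Smarcd3 and Lsr on the opposite strand, which makes their values uncertain.

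Most nuclear RNAs, splicing regulators and zinc finger genes had lower values on HFD. Malat1, a long noncoding RNA kept in the nucleus (chromosome 19, 5795690 to 5802672), had 57.9 to 93.0 CPM in Ctr mice (median 70.5) and 29.7 to 70.4 CPM in HFD mice (median 47.6). 7 HFD mice lay below the lowest Ctr mouse, and the log2 fold change was -0.53 (SE 0.122, adjusted p = 0.0825). Srrm2, a splicing cofactor, had -0.42. Over 38 splicing regulators and nuclear RNAs the median was -0.10, with 12 lower (31.6%, against 8.3% of all genes) and 0 higher at a p below 0.05, and -0.01 with the offset for gene length. Genes over 4000 bases had a median of -0.101 in that list and of -0.091 outside it. Of 349 zinc finger genes named Zfp, 266 were lower, 52 of them with a p below 0.05 against 7 higher, with a median of -0.13, and of -0.10 with the offset. The 52 were 14.9% of the list, against 8.3% of all genes and 16% of the genes over 4000 bases with at least 1 CPM. Zfp62 had -0.43 (SE 0.103, adjusted p = 0.0878).

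Genes of lipid, glucose and xenobiotic metabolism were split between the directions. In fatty acid synthesis 16 of 21 genes were lower (median -0.12, and -0.07 with the offset for gene length), 3 of them with a p below 0.05 (14.3%, against 8.3% of all genes, of which 9674 of 17199 were lower). Without HFD replicate 3 at ZT9 the median was -0.20 and 6 genes had such a p. Acly, which makes cytosolic acetyl-CoA, had -0.30 and the desaturase Scd1 -0.35. Scd1 had 5100 to 13800 CPM on Ctr (median 7230) and 2840 to 9250 CPM on HFD (median 6380), with broad overlap (unadjusted p = 0.0445), and a log2 fold change of -0.20 without the 3 Ctr libraries that stood apart. In cholesterol synthesis and uptake, 17 of 25 genes were lower (median -0.06, but 0.12 without ZT5, 0.10 without replicate 3 and 0.01 without HFD replicate 3 at ZT5). Fatty acid oxidation had a median of 0.05, with the electron carrier Etfb at 0.64 and the hepatokine Fgf21 at -0.92. Etfb was 0.81 and 1.04 at ZT1 and ZT5 and 0.05 at ZT9. The value at ZT9 rested on HFD replicate 3, with 19 CPM, against 41.1 and 47.6 CPM in replicates 1 and 2 and 32.4 to 36.5 CPM on Ctr. In glucose metabolism (median -0.01 over 22 genes) 1 gene was higher at a p below 0.05 (4.55%, against 7.38% of all genes). It was Pfkfb1, the liver enzyme for fructose 2,6-bisphosphate (0.48, SE 0.131, adjusted p = 0.0968). Gstm2 and Cyp2c54 of the xenobiotic list had 0.42 and 0.53 (list median 0.05 over 30 genes, and -0.05 with the offset for gene length). Pericentral hepatocyte genes had a median of 0.18 (0.20 with the offset), against -0.02 for the periportal genes. Of 18 pericentral genes, 6 were higher at a p below 0.05 (33.3%, against 7.38% of all genes). Among them were the hepatokine Lect2 (0.50) and Rgn, an enzyme of ascorbate synthesis (0.33). Without the 3 Ctr libraries that stood apart in the sex-biased genes the medians were 0.12 and 0.09, and 4 pericentral genes were higher at a p below 0.05.

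Of 19 genes of the clock and its output, 14 had lower values on HFD, with a median of -0.13, and of -0.03 with the offset for gene length. Their mean log2 CPM was lower in all HFD than in all Ctr mice at ZT1 (3.26 to 3.60 and 3.63 to 3.71) and ZT5 (3.81 to 4.22 and 4.27 to 4.31), and overlapped at ZT9. This separation of 3 mice against 3, with close ranges, was not tested, and the Zfp genes also had it at 2 ZT. The mean of the clock list also rose with the time of day, to 4.57 to 4.62 in Ctr mice at ZT9. In this list 0 genes had an adjusted p below 0.05. An unadjusted p below 0.05 was held by 1 lower gene (5.26%, against 8.3% of all genes), Bhlhe40, a repressor that competes with CLOCK and BMAL1. Bhlhe40 had 57.9 to 208 CPM in Ctr mice (median 145) and 34.7 to 144 CPM in HFD mice (median 89.7), with a log2 fold change of -0.49 (SE 0.133, adjusted p = 0.0918). It was -0.17 at ZT1, -0.89 at ZT5 and -0.41 at ZT9. The core activators Arntl, Clock and Npas2 had 0.11, -0.14 and 0.27, and the repressors Per1, Per2, Per3, Cry1 and Cry2 had -0.18, -0.20, -0.42, -0.07 and -0.06. The nuclear receptors Nr1d1, Nr1d2 and Rora had 0.05, -0.17 and -0.16. Among the output and related factors, Dbp, Tef, Hlf, Nfil3, Ciart and Bhlhe41 had -0.28, -0.13, 0.08, 0.07, -0.06 and -0.61. Standard errors ranged from 0.0802 for Clock to 0.362 for Ciart, and each of the 3 ZT samples a different part of the day, so the mean over them is not a measure of rhythm.

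Markers of the other liver cell types overlapped between the diets in their summed levels. Kupffer cell markers summed to 411 to 580 CPM on Ctr and 370 to 661 on HFD over 12 genes, sinusoidal endothelial markers to 233 to 364 and 211 to 448 over 10, and stellate cell markers to 356 to 624 and 293 to 513 over 12. Stellate markers had a median log2 fold change of -0.22, with Hgf at -0.47 (unadjusted p = 0.011). This median was 0.06 without the 3 Ctr libraries that stood apart in the sex-biased genes and -0.01 without these and HFD replicate 1 at ZT9. The mean log2 CPM of the stellate markers was 4.67, 5.03 and 4.53 in the 3 Ctr libraries, against 4.05 to 4.68 in the other Ctr mice and 3.38 to 4.58 in the HFD mice. Hepatocyte markers had a median of 0.17. At a p below 0.05, 3 of 8 were higher (37.5%, against 7.38% of all genes) and 1 lower (12.5%, against 8.3%). The mean log2 CPM of these markers was 11.9 to 12.2 on Ctr and 11.9 to 12.5 on HFD, with 7 HFD mice above every Ctr mouse. Erythroid genes had a median of 0.26 (0.08 with the offset for gene length), with sums of 202 to 360 CPM on Ctr and 250 to 459 on HFD. Of these genes, 3 of 6 were higher at a p below 0.05 (50%, against 7.38% of all genes). The defining markers of pancreas and fat were near 0, with Lep at 0 counts and Adipoq at 4 counts over all 18 mice, with the exceptions of Cela2a and the fat gene Cfd, which had counts in every mouse, and of Cela1, which had 13.1 to 33.4 CPM on Ctr and 17.8 to 51.5 CPM on HFD. Whether these marker values bear on the other results was not tested.

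At single ZT the test had 3 mice against 3. At ZT1 and ZT5, 0 genes passed with edgeR, and 6 and 20 with DESeq2. Unadjusted p-values below 0.05 were held by 3.36% of the genes as higher and 4.66% as lower at ZT1, by 4.65% and 4.66% at ZT5, and by 5.27% and 6.66% at ZT9. At ZT9, 12 genes passed (0.0698%), and all 12 fell on HFD. They included Irf2bp1, a corepressor (log2 fold change -0.79, adjusted p = 0.0231 from edgeR), Snrpf, a core spliceosomal protein (-1.28, adjusted p = 0.0357), Polr2l, a small RNA polymerase subunit, and CT010467.1, annotated as ribosomal RNA and not an mRNA. CT010467.1 had 2030, 1610 and 2040 CPM in the Ctr mice at ZT9 and 119, 295 and 404 CPM in the HFD mice. Ribosomal RNA as a whole was not measured. At ZT1 CT010467.1 had 852, 1160 and 2660 CPM on Ctr and 2260, 1890 and 2160 CPM on HFD, and at ZT5 1230, 3460 and 1870 CPM on Ctr and 1620, 1310 and 744 CPM on HFD. The GC dependence of the libraries also differed at ZT9, with a rho of 0.245 to 0.263 in Ctr and -0.338 to -0.143 in HFD mice. The part of either in the calls at ZT9 was not tested. Without replicate 1 and without replicate 2, 0 genes passed at ZT9, and without HFD replicate 3 at ZT9, 650 did, 318 higher and 332 lower. Without replicate 3 of both diets it was 52 and 52, and with DESeq2 111 and 132, so the one-sided direction was not kept in these fits.

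The diet difference itself varied between ZT for 2 genes (0.0116%), Polr2l and the pseudogene Rps2-ps10 (adjusted p = 0.00337 for both, edgeR's F test of the interaction). Polr2l had 31.1, 30.9 and 34.2 CPM on Ctr and 41.3, 43.6 and 47.3 CPM on HFD at ZT1, and 37.2, 38.8 and 35.6 CPM on Ctr and 22.8, 23.1 and 22.0 CPM on HFD at ZT9. The HFD mice were thus all above the Ctr mice at ZT1 and all below them at ZT9. The log2 fold changes were 0.46, 0.50 and -0.72 at ZT1, ZT5 and ZT9. Rps2-ps10 had 0.74, -0.96 and -1.72. Without replicate 2 and without replicate 3, 0 genes passed this test, and without replicate 1, 1 did. The medians of the nuclear respiratory chain were 0.32, 0.49 and 0.16 at ZT1, ZT5 and ZT9, those of the mitochondrially encoded genes 0.49, 0.47 and 0.43, and those of the male-biased genes 0.35, 0.42 and 0.48. Those of the Zfp genes were -0.23, -0.14 and -0.03. The lower respiratory chain median at ZT9 rested on HFD replicate 3. The mean log2 CPM of that list at ZT9 was 6.82, 7.08 and 6.32 in HFD replicates 1, 2 and 3, and 6.62 to 6.67 in Ctr mice. Among the lists whose sign was not the same at each ZT were the splicing list (-0.17, -0.25 and 0.05), the female-biased genes (-0.24, -0.13 and 0.05), cholesterol synthesis and uptake (0.19, -0.41 and -0.02), fatty acid oxidation (0.06, 0.18 and -0.07) and the pericentral genes (0.41, 0.24 and -0.01).

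The same groups were compared with the dark phase, in the 18 other mice of this age (ZT13, ZT17 and ZT21). In the dark phase on its own, 0 genes passed and 484 (2.85%) were higher and 604 (3.56%) lower at an unadjusted p below 0.05, of 16986 tested. The mitochondrially encoded genes had a median of -0.05, the nuclear respiratory chain 0.06, the cytosolic ribosomal proteins 0.04 and the male-biased genes -0.08. The difference between the phases was tested per gene with all 36 mice. No gene passed (0 of 17409, with 2333 at an unadjusted p below 0.05), DESeq2 called 58 genes, and 262 passed without HFD replicate 3 at ZT9. Without replicate 2, 0 of 17395 genes passed, 887 had an unadjusted p below 0.05, and the lowest adjusted p was 0.937 (edgeR). The list counts that follow are from the fit with all 36 mice and were not taken without replicate 2. At an unadjusted p below 0.05, the diet value was higher in the light than in the dark for 39 of 80 nuclear respiratory chain genes, 33 of 77 mitochondrial and 34 of 82 cytosolic ribosomal proteins, 8 of 13 mitochondrially encoded and 15 of 30 male-biased genes, against 6.8% of all genes (6.61% had the lower value in the light). None of these lists held a gene with the opposite difference at that p. The median of the splicing list was -0.18 in the dark, below the -0.10 in the light, and Malat1 had -0.54 in the dark and -0.53 in the light (difference 0.03, unadjusted p = 0.893).

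The values of single genes in both phases were as follows. For mt-Co1 the log2 fold change was 0.47 in the light and -0.05 in the dark (difference 0.54, adjusted p = 0.161). Dct, dopachrome tautomerase, had 1.08 and -0.27, and Dad1, a subunit of the oligosaccharyltransferase, 0.37 and -0.09. Bahd1, a heterochromatin factor, had -0.39 and 0.19 (difference -0.56, adjusted p = 0.125, the lowest of all genes). Cfb had -0.65 and 0.34. Scd1 had -0.35 and 0.39 (difference -0.73, unadjusted p = 0.0084). The dependence of the diet values on gene length was also limited in the dark, where the median was 0.0268 up to 1000 bases and 0.00831 over 4000 bases. The length trend of the light phase was thus not seen in the dark, and its part in the phase difference of the gene groups was not tested.

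**Figure D4:**
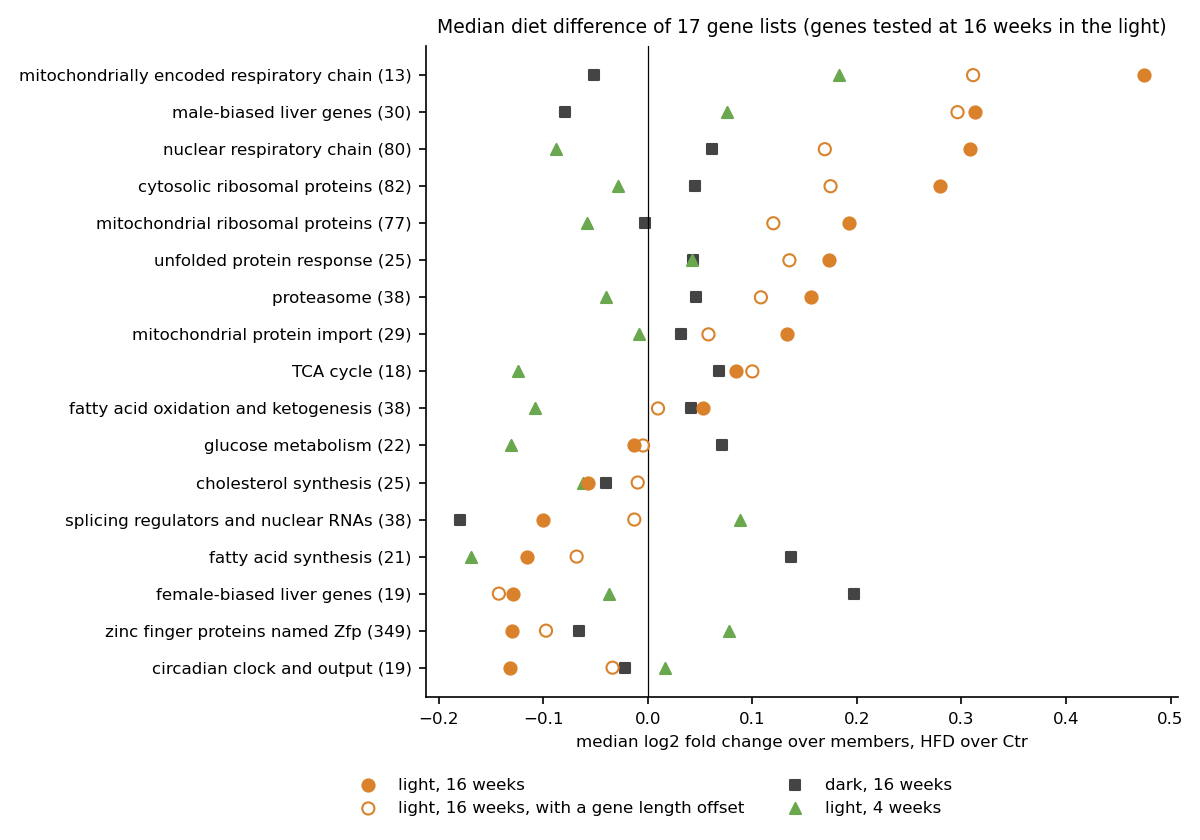
Median log2 fold change between maternal diets over the members of 17 gene lists (number tested in parentheses), for the light phase at 16 weeks without (filled circles) and with (open circles) an offset for gene length, the dark phase at 16 weeks (squares) and the light phase at 4 weeks (triangles). The mitochondrially encoded genes stand at 0.47 in the light and -0.05 in the dark, the male-biased genes at 0.31 and -0.08, and the open circle of the male-biased genes is close to the filled one.

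At 4 weeks of age the light-phase difference was tested in 17 other mice. On its own, 0 genes passed there, and 260 were higher (1.57%) and 268 lower (1.62%) at an unadjusted p below 0.05. The nuclear respiratory chain had a median of -0.09 at that age, with 0 genes higher and 9 lower at a p below 0.05, and the difference between the ages had a p below 0.05 for 47 of 80 genes, all with the higher value at 16 weeks (5.83% of all genes had a higher and 5.96% a lower value at that p). The mitochondrially encoded genes had a median of 0.18 at 4 weeks, with 1 of 13 genes at a p below 0.05 for the difference, and the male-biased genes 0.08, with 1 of 29. The median difference between the ages was 0.33 for the nuclear respiratory chain, 0.32 for the mitochondrially encoded and 0.27 for the male-biased genes, and the lists were not compared with each other by a test. Interferon-stimulated genes had a median of 0.36 at 4 weeks and -0.04 at 16 weeks, and 17 of 45 had a p below 0.05 for the difference. Over all genes, 1 of 16115 passed (0.00621%), Ndufa12, with a log2 fold change of -0.88 at 4 weeks and 1.16 at 16 weeks (difference 2.05, adjusted p = 0.0401 from edgeR). This call was lost without replicate 1, without replicate 2 and with the replicate number in the fit, DESeq2 called 111 genes, and 154 passed without HFD replicate 3 at ZT9. The medians by gene length were -0.0239 up to 1000 bases and 0.0255 over 4000 bases at 4 weeks, against 0.203 and -0.0911 at 16 weeks, and the part of this in the age difference of the gene groups was not tested. The age comparison also separates 2 count tables, so differences between the ages and between the tables cannot be told apart.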

How the data were processed

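The deposited values were raw counts per gene without normalization, in a table for each age (54532 genes). According to the submitters' processing notes and the study's methods, the authors aligned poly-A reads with HISAT2 (2.0.5) to GRCm38/mm10 and counted uniquely mapped reads with featureCounts (1.5.0-p3) on Ensembl gene models. Counting by strand was not given in the sources used here. 2 columns with no matching label were not used. Genes detected in 50% or more of the Ctr and of the HFD mice (any count) were tested with edgeR 4.0.16 (R 4.3.3, limma 3.58.1; TMM, quasi-likelihood, ZT and diet as terms, Benjamini-Hochberg adjustment, threshold 0.05), where the paper used DESeq2 (1.42.0 here, as an alternative). CPM used TMM-scaled library sizes, and log2 CPM a prior count of 2. Offsets were lowess trends on log exonic length or GC content per library. Library measures were compared by exact permutation of diets within ZT. P-values measure the spread between these mice.

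On simulated counts of these mice, 52 of 100 genes with a log2 change of 0.5 and 96 of 100 with a change of 1 were called in the light-phase comparison over 17199 genes. Among the unchanged genes, 9 were called. For the difference between the phases, 37 and 81 of 100 were called over 17409 genes, and 5 of the unchanged genes. The simulated counts held no trend with gene length and no libraries that stand apart, so these shares may not hold for the real libraries.

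The genes named were the 12 with the lowest p in each direction with a mean of at least 1 CPM (since none passed), up to 4 per list, all clock genes, and those with the lowest p for each tested difference. Ppa2, Serpina1e, Nox4, mt-Nd1, mt-Nd2, mt-Nd4, mt-Atp8, mt-Nd4l, Snrpf, Pard3, Cela2a, Cfd and the promoters shown were chosen after their values were seen. A few genes that this rule names are not reported here. The comparison and the gene lists were chosen with earlier results of these data known. Counts of libraries of the same diet and ZT differed beyond sampling noise in every pair (chi-square per degree of freedom of at least 13.7), so each was kept as 1 replicate.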

Additional observations from a re-analysis of the deposited data

Results flagged for a closer look

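Values of single mice were compared within the 9 mice of each diet, in 140 sets, and in 10 sets the highest or lowest mouse stood apart from the nearest other mouse by more than the 95% critical value of Dixon's ratio. Chance would give this in about 5% of the sets. Values other than rho are differences from the mean of the 6 mice of the same ZT.

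HFD replicate 3 at ZT9 had a rho between level and gene length of 0.386, against at most -0.0551 in the other HFD mice. HFD replicate 1 at ZT9 stood apart in 4 measures. The share of its counts in the 10 most abundant genes was 3.85 percentage points above the mean of its ZT (next mouse 1.45), that of the mitochondrial genome 3.16 (next 1.31), that of Alb 1.72 (next 0.423), and its mean log2 CPM of the female-biased genes was 0.996 above it (next -0.0292). Ctr replicate 1 at ZT1 had 2830000 more counts than the mean of its ZT (next 541000). The citric acid cycle genes were 0.122 above the mean of the ZT in Ctr replicate 3 at ZT5 (next 0.00289) and 0.264 above it in HFD replicate 2 at ZT9 (next 0.086). Ndufa12 was lowest in Ctr replicate 1 at ZT5 (-1.2 on the log2 scale, next -0.54), and Cfb was lowest in HFD replicate 2 at ZT1 (-1.22, next -0.429).

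For 3 genes the diet difference itself differed between conditions. For Polr2l and Rps2-ps10 it differed between ZT1, ZT5 and ZT9 (adjusted p = 0.00337 for both), and for Ndufa12 it differed by 2.05 on the log2 scale between 16 and 4 weeks.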

How the results depend on the processing

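The number of genes called for the light-phase difference, 0 with all 18 mice, was 46 with upper-quartile scaling, 574 with DESeq2, 835 with no filter on low counts, 577 with all 36 mice of this age in the fit, 12 with an offset for GC content, 4 with that offset and the replicate block, and 1 with the replicate block. It was between 0 and 845 when mice, replicate numbers or ZT were left out, with 845 without HFD replicate 3 at ZT9, 209 without ZT9 and 95 without replicate 3. It stayed at 0 with DESeq2's size factors, with edgeR's filter on low counts, with robust fitting and with an offset for gene length. The combinations of the length offset with other choices were added after the data were seen and gave 285 genes without HFD replicate 3 at ZT9, 262 with all 36 mice and 0 with the replicate block. Also added then were fits without the 3 Ctr libraries high in female-biased genes, and without these and HFD replicate 1 at ZT9, which gave 0 genes at an adjusted p below 0.05 and 1899 and 1890 at an unadjusted p below 0.05. The 2696 genes at an unadjusted p below 0.05 were between 1197 (without replicate 2) and 3505 (without HFD replicate 3 at ZT9) when mice were left out, and 1684 without ZT5. Of these genes, 47.1% were higher on HFD with TMM and 58.3% with upper-quartile scaling.

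The list medians of the nuclear respiratory chain (0.17 to 0.39), mitochondrially encoded genes (0.31 to 0.54), mitochondrial (0.12 to 0.26) and cytosolic ribosomal proteins (0.17 to 0.34), male-biased (0.27 to 0.41) and Zfp genes (-0.17 to -0.09) kept their sign in all 40 alternatives. That of the splicing list was -0.21 without ZT9.

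At ZT1, ZT5 and ZT9, DESeq2 called 6, 20 and 243 genes. Leaving out replicate 1, 2 or 3 gave 0 to 4, 0 and 0 to 104 genes, and leaving out HFD replicate 3 at ZT9, in these tests a choice made after the data were seen, gave 1 at ZT5 and 650 at ZT9. For the difference between ZT, the counts were 25 with DESeq2, 0 to 1 without a replicate number and 5 without that library. For the difference between the phases they were 58 with DESeq2, 0 without any one replicate number and 262 without that library. For the difference between the ages they were 111 with DESeq2, 0 with the replicate block, 0 to 6 without a replicate number and 154 without that library. The cause of these changes was not tested.

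Replicate numbers gave little sign of pairing: deviations of Ctr and HFD mice with the same number correlated between -0.0631 and 0.206, above 0.1 in 3 of 9 pairs. Such correlations cannot show a pairing limited to few genes. At ZT5, Arntl fell with replicate number in both diets (7.28, 4.38 and 2.04 CPM on Ctr, 10.5, 3.07 and 1.9 CPM on HFD). Cry2 did not (32, 25.9 and 25.8 CPM on Ctr, 23.3, 23.6 and 29.8 CPM on HFD). With the replicate block, 1 gene had an adjusted p below 0.1 in the light phase in place of 284, and apart from the values given above the block moved no count of calls at an adjusted p below 0.05 by more than 1.5 times.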
